A study of Mus musculus with 8 samples.

Results

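The carboxylesterase genes Ces1b, Ces1c, Ces1d, Ces1e, Ces1f, Ces1g, Ces2a, Ces2c, Ces2e and Ces3a were chosen by name and found by gene identifier, and these 10 genes are among the 55487 rows of the count table. All 10 passed the expression filter, beside 14353 genes in all. According to the study, the RNA came from tumors grown under the skin of mice. They grew after murine MC38 colon cancer cells carrying green fluorescent protein were implanted. The labels describe the sorted GFP-negative cells as the stromal vascular fraction, the non-tumor cells of the tumor. The 2 groups were 4 libraries labelled Bmal1+/+ and 4 labelled Bmal1-/-, where by the labels the host and not the tumor cells carried the deletion of Bmal1 (Arntl), the clock transcription factor that pairs with CLOCK. The mice came from Bmal1+/- breeders, and the tumors were taken when they had reached a fixed volume. Age, sex and time of day are not given in the sources used here, nor whether each library came from 1 animal, so p-values measure the spread between these samples.

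Carboxylesterases are serine hydrolases that cleave esters and amides. Most stay in the endoplasmic reticulum of the hepatocyte, where they activate or inactivate drugs and release fatty acids from stored lipid, and some are made in the gut. The mouse has several copies of the Ces1, Ces2 and Ces3 genes, and the copies lie in tandem.

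Total counts per library were between 14054825 and 18449143, and values are given as CPM, which is a count relative to its library total. Except for the detection floor, every CPM is normalized. The total is then that of the filtered genes, scaled by a normalization factor (TMM). The detection floor of 3 counts came to 0.163 to 0.213 CPM. This floor covers counting error only, and the intervals of fold changes given below include the spread between libraries. Bmal1 RNA, counted over the whole gene, went against the label. It was at 0.960 to 2.71 normalized CPM in libraries labelled Bmal1+/+ and at 30.1 to 35.0 in the others. Such a count does not show which parts of the transcript were present, so it does not settle the genotype. Both groups are therefore named here by their labels alone. If the labels had been exchanged, every direction given below would be turned. Xist was at 844 to 1095 CPM in libraries labelled Bmal1+/+ and at most 0.749 in the libraries labelled Bmal1-/-, and the sum of 4 Y-linked genes was 0 in the former and 121 to 144 CPM in the latter, so the label and the sex of the source cannot be told apart for any value below. Transcripts that define hepatocytes were abundant in a fraction labelled as tumor stroma. The tissue of origin is thus given here as the sources state it, and it was not tested. The 10 hepatocyte markers summed to between 105970 and 116590 CPM in libraries labelled Bmal1+/+, and 8 fibroblast markers to between 131.8 and 211.75 CPM, with Pdpn at 0 in all libraries. Library 4 of the Bmal1-/- label stood apart, with 36966 CPM over 8 acute-phase genes against 1813 to 4295 in the other 7, and the counts of genes called by adjusted p are also given without it.

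The members sit in a pair of tandem arrays on chromosome 8 of GRCm38. The Ces1 array lies on the minus strand from 93020214 (Ces1a) to 93379725 (Ces1h), and the array of Ces2 and Ces3 lies on the plus strand from 104734003 (Ces2a) to 105093929 (Ces3b). Each spans 360 kb, and 11.4 Mb separate them. RefSeq windows of the 250 bases before a transcription start were at hand for 7 of 10 members, and not for Ces1d, Ces1f and Ces3a. They were searched on both strands for the E-box CACGTG, which BMAL1 and CLOCK bind, the D-box TTATGTAA or TTACGTAA, which the clock output factors DBP, TEF and HLF bind, the ROR core TAGGTCA and the HNF4 element CAAAGTCCA. The D-box was found in 4 of these 7 members, all of subfamily Ces1, and in the related gene Ces1a, against 0.93% of 32851 windows in the whole RefSeq table. Members are counted here by gene and the whole by window. Genes of an array are copies, so their windows are not independent of each other, and enrichment was not tested. The other motifs were not found in any member's window, against 6.02% of all windows for the E-box, 2.23% for the ROR core and 0.38% for the HNF4 element. No window of a family gene held more than 1 match. These are matches of letters in a short window, and binding was not measured. The excerpts below have the D-box in capitals with 11 bases on either side. They are printed 5′ to 3′ on the minus strand, from RefSeq on GRCm38.p6, to set side by side the surroundings in genes that differed in level.
Ces1b (chr8:93080006-93080035, match beginning 84 bases before the start): gagggggagctTTATGTAAttatgctaatt
Ces1c (chr8:93131359-93131388, 94 bases before the start): gagggggagctTTATGTAAttatgctaatt
Ces1e (chr8:93229682-93229711, 81 bases before the start): ctgagagatatTTATGTAAgaagttgtttg
Ces1g (chr8:93337423-93337452, 232 bases before the start): ggggagaaacaTTATGTAAgatgttccttg

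The excerpts of Ces1b and Ces1c matched at 30 of 30 bases, and those of Ces1e and Ces1g at 18 of 30. Either of Ces1b and Ces1c matched either of Ces1e and Ces1g at 15 of 30. These counts include the letters of the D-box itself, so only Ces1b and Ces1c were closely alike around it. Ces1b has a second annotated start inside its excerpt. The window before that start ends within the same D-box, short of its last letter, so it could hold no full match there. The wider windows of Ces1b and Ces1c were 94.6% identical over 223 aligned bases, and the log2 fold changes of the pair, described further on, were -3.14 and -0.97. The whole window of Ces1c, the most abundant member, is printed with that of Ces2a, a member of the other array in which none of the searched letters occur.
Ces1c (chr8:93131284-93131533, minus strand): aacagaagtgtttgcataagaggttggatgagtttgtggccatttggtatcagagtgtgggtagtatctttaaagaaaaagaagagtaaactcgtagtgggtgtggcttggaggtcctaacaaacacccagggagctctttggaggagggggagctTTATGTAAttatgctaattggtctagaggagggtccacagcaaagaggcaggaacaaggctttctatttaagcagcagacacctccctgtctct
Ces2a (chr8:104733753-104734002, plus strand): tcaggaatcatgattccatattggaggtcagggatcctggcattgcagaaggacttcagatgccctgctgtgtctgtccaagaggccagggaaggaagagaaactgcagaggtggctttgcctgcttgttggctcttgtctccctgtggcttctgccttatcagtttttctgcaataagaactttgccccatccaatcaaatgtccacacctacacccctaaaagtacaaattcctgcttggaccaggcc

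The subfamilies differed in direction. All 6 Ces1 members were lower in the libraries labelled Bmal1-/-, by 1.96-fold (Ces1c) to 8.84-fold (Ces1b and Ces1d). Ces3a was 3.25-fold higher. The 3 Ces2 members had fitted fold changes of at most 1.23 and did not pass the test. With edgeR's quasi-likelihood test and Benjamini-Hochberg adjustment over 14353 genes, 6 of 10 members were called lower, where 16.2% of all tested genes were, and 1 was called higher, where 14.9% were. The median log2 fold change of the members was -1.03, and that of all tested genes was 0.02. Without Bmal1-/- replicate 4 there were again 6 members lower, against 16.9% of genes, and 3 higher, against 15.0%. In bulk RNA, fewer cells of a type and less RNA per cell cannot be told apart. The hepatocyte markers did not move together. Alb, the gene of serum albumin, fell from 64318 to 71872 CPM down to 12744 to 18830, whereas the other 9 markers summed to 41649 to 46118 CPM in libraries labelled Bmal1+/+ and 48488 to 73555 in the others. With Alb the sum in the latter was 65777 to 86300 CPM, below every library labelled Bmal1+/+, although the median log2 fold change of the list was 0.16. Of the 10 markers 1 was lower and 3 were higher, or 2 and 4 without replicate 4. Their part in the results was not tested.

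**Figure D1:**
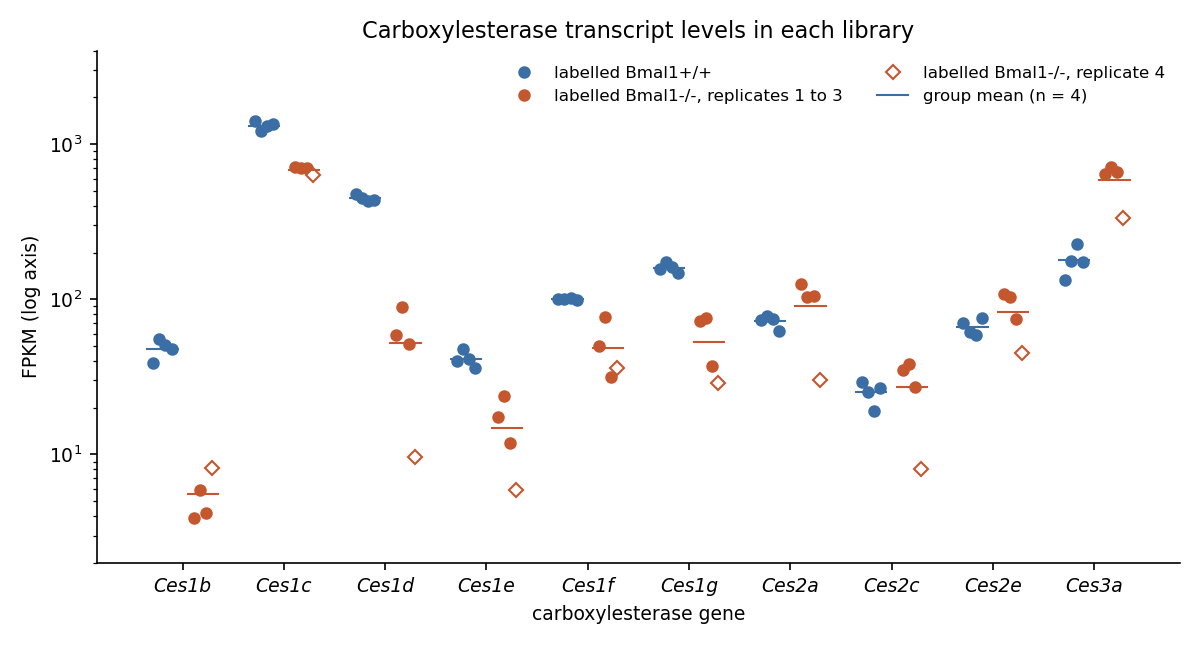
FPKM (log axis) of the 10 carboxylesterases in each library, with libraries labelled Bmal1+/+ in blue, libraries labelled Bmal1-/- in orange, an open diamond for Bmal1-/- replicate 4, and a bar in the group's color at each mean (n = 4). The groups are apart for all 6 Ces1 genes and for Ces3a and overlap for the 3 Ces2 genes, and the diamond is the lowest orange point in 8 of 10 genes.

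Ces1c, the carboxylesterase secreted into mouse plasma, was the most abundant member. Its FPKM values (fragments scaled to gene length and library total) were 1403, 1210, 1315 and 1344 in the libraries labelled Bmal1+/+. They were 712, 705, 697 and 629 in the libraries labelled Bmal1-/-. All 4 of the latter were lower, at close to equal levels, so the groups did not overlap. Its log2 fold change of -0.97 (SE 0.13, n = 4 against 4, edgeR adjusted p = 0.000446) had the smallest SE of the members.

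Ces1d, the triacylglycerol hydrolase that supplies lipid for very low density lipoprotein (VLDL), was second in level in the libraries labelled Bmal1+/+ and sixth in the others. Its counts were 24719, 22746, 19982 and 25503 in the libraries labelled Bmal1+/+, and 2896, 3924, 2272 and 458 in those labelled Bmal1-/-. The groups were far apart, and replicate 4 of the Bmal1-/- label was 6.59-fold below the mean of the other 3 in normalized CPM. The log2 fold change was -3.14 (SE 0.51, edgeR adjusted p = 0.00167) with all libraries and -2.80 (SE 0.19, adjusted p = 1.51e-05) without replicate 4. Gm45909, a separately annotated gene, lies in an intron of Ces1d on the same strand.

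Ces1b, which differed from its array neighbor Ces1c in size of change, had 1265, 1743, 1478 and 1725 counts in the libraries labelled Bmal1+/+ and 119, 162, 115 and 243 in the others. Here Bmal1-/- replicate 4 was the highest of its group and still far under each library labelled Bmal1+/+. The log2 fold change was -3.14 (SE 0.25, edgeR adjusted p = 2.54e-05). The 95% interval for Ces1b ran from -3.70 to -2.59 and that for Ces1c from -1.25 to -0.69, and the difference between the genes was not tested itself. The transcripts of Ces1b and Ces1c are 91.4% identical, and 10.8% of the 50-base windows of Ces1b occur in another gene of the family. The FPKM of Ces1c was 22.0 to 35.9 times that of Ces1b in libraries labelled Bmal1+/+, and how the counting divided reads shared by the pair is not given in the sources used here.

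Ces1g, a hepatic carboxylesterase whose loss raises blood lipids, had 157, 175, 161 and 147 FPKM in libraries labelled Bmal1+/+ and 72.1, 75.3, 37.0 and 28.8 in those labelled Bmal1-/-. The latter fell into a pair of higher and a pair of lower libraries, all under the Bmal1+/+ range. Its log2 fold change was -1.63 (SE 0.28, edgeR adjusted p = 0.0022). Ces1e, or egasyn, which holds beta-glucuronidase in the endoplasmic reticulum, had 40.2, 47.5, 41.0 and 36.1 FPKM against 17.5, 23.8, 11.9 and 5.88. The lowest value was again from replicate 4. Its log2 fold change was -1.52 (SE 0.33, edgeR adjusted p = 0.00717) and -1.26 without that library.

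Ces1f was the steadiest member in the libraries labelled Bmal1+/+, with 415, 427, 420 and 423 normalized CPM. In the libraries labelled Bmal1-/- it had 203, 310, 130 and 153 normalized CPM, all lower and spread more widely. The SD was 5.13 CPM in the former and 79.9 CPM in the latter group. Its log2 fold change was -1.08 (SE 0.24, edgeR adjusted p = 0.00775). In normalized CPM, every library labelled Bmal1-/- was below every library labelled Bmal1+/+ for all 6 Ces1 members, as for 16.8% of all tested genes. By the study's own criterion, an absolute log2 fold change above 1 with an unadjusted p below 0.05, 5 members were lower against 8.71% of genes, since Ces1c missed the fold limit, and 1 was higher against 5.41%.

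**Figure D2:**
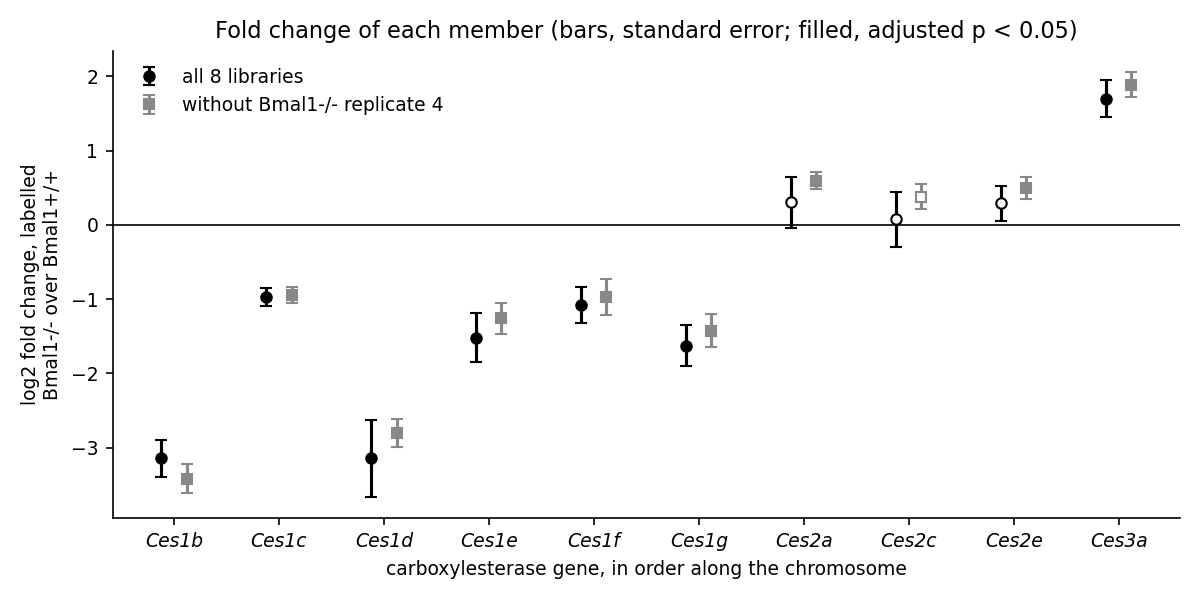
Log2 fold change of each member (labelled Bmal1-/- over labelled Bmal1+/+) with its standard error, from all 8 libraries (circles) and without Bmal1-/- replicate 4 (squares), filled where the adjusted p was below 0.05. The Ces1 genes lie between -3.14 and -0.97, the Ces2 genes between 0.07 and 0.30 and Ces3a at 1.70 with all libraries, and Ces2a and Ces2e are filled only without that library.

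The Ces2 enzymes hydrolyze acylglycerols and drug esters with large alcohol groups. Ces2a had 4066, 4168, 3662 and 3826 counts in libraries labelled Bmal1+/+ and 6502, 4857, 4938 and 1511 in those labelled Bmal1-/-. Of the latter, 3 were above and replicate 4 was below every library labelled Bmal1+/+, which also holds in normalized CPM. The log2 fold change of 0.30 (SE 0.34, 95% interval -0.45 to 1.06, edgeR adjusted p = 0.534) became 0.59 (SE 0.12, adjusted p = 0.00457) without replicate 4.

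Ces2e had 228, 209, 191 and 254 normalized CPM in libraries labelled Bmal1+/+ and 349, 333, 247 and 150 in those labelled Bmal1-/-, so that the groups overlapped. Its log2 fold change was 0.29 (SE 0.24, 95% interval -0.24 to 0.82, edgeR adjusted p = 0.389), or 0.49 (adjusted p = 0.0328) without replicate 4. Ces2c, a neutral lipid hydrolase that is also made in gut, had 77.8, 69.5, 50.5 and 74.1 against 91.1, 100.4, 72.9 and 22.0 normalized CPM. Its ranges overlapped, with a log2 fold change of 0.07 (SE 0.37, 95% interval -0.76 to 0.91, edgeR adjusted p = 0.90), and it was not called without replicate 4 either (0.38, adjusted p = 0.116). With all libraries, these intervals include no change as well as changes up to their limits. Ces2c is 97.6% identical in transcript to the pseudogene Ces2d-ps, which had at most 22 counts in a library.

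Ces3a, the member of the third subfamily, rose. Its counts were 7049, 9131, 10872 and 10357 in libraries labelled Bmal1+/+ and 32392, 32453, 30084 and 16309 in those labelled Bmal1-/-. Each of the latter exceeded each library labelled Bmal1+/+, as for 16.7% of all tested genes, and replicate 4 was again the lowest. The log2 fold change was 1.70 (SE 0.25, 95% interval 1.14 to 2.25, edgeR adjusted p = 0.000929). Gm45724 overlaps an exon of Ces3a on the opposite strand, and strand use in the counting is not given in the sources used here.

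Among the 4 libraries labelled Bmal1-/-, replicate 4 was thus the lowest in 8 of 10 members, with Ces1b and Ces1f as the exceptions. The share of all tested genes for which it was the lowest was not counted, so this is not given as a trait of the members. Outside the family it was also the lowest for Alb and Aadac, and the highest for Trf and Hnf4a. Relative to the mean of the other 3 libraries of its label, replicate 4 was at 0.152 of the normalized CPM for Ces1d and 0.281 for Ces2a. It was at 0.249 for Ces2c, 0.518 for Ces3a and 0.927 for Ces1c. The acute-phase sum of this library, given above, was higher than in every other library, and its part in these values was not tested.

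Measured per length, the order of the members changed. In the libraries labelled Bmal1+/+ the mean FPKM fell from Ces1c (1318 ± 80.8, SD, n = 4) through Ces1d (448 ± 20.0), Ces3a (178 ± 39.2), Ces1g (160 ± 11.5), Ces1f (101 ± 1.20), Ces2a (72.0 ± 6.73), Ces2e (66.4 ± 7.74), Ces1b (48.2 ± 6.80) and Ces1e (41.2 ± 4.74) to Ces2c (25.1 ± 4.39). The ranges of neighbors overlapped for Ces3a and Ces1g, for Ces2a and Ces2e and for Ces1b and Ces1e. In the libraries labelled Bmal1-/- Ces1c (686 ± 38.5) and Ces3a (591 ± 172) led with overlapping ranges. They were apart from the rest, which ran from Ces2a (91.0 ± 41.7) to Ces1b (5.53 ± 1.99) with each neighbor overlapping the next.

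The make-up of the 10 members followed. Other family genes are not counted in the order or in the shares. Among them, Ces3b had a mean of 49.8 FPKM in libraries labelled Bmal1+/+ and 102 in the others. The 6 Ces1 members held 87.9, 85.7, 84.7 and 86.2% of the members' summed FPKM in libraries labelled Bmal1+/+, and 50.1, 50.3, 48.8 and 63.1% in those labelled Bmal1-/-. Ces3a held 5.26 to 9.21% in the former and 29.6 to 39.0% in the latter. The share of Ces1d went from 17.3 to 18.9% down to 0.849 to 4.57%. The ratio of Ces3a to Ces1d in FPKM was 0.279 to 0.533 in libraries labelled Bmal1+/+ and 10.9, 8.10, 13.0 and 34.9 in the others. The summed normalized CPM of the 10 members was steady at 6955 to 7125 in libraries labelled Bmal1+/+ and was 5289, 5640, 5052 and 3342 in the others. The Ces2 members summed to 487 to 551 CPM against 846, 769, 671 and 274, so that the fourth library lay on the other side of the Bmal1+/+ range from its group.

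**Figure D3:**
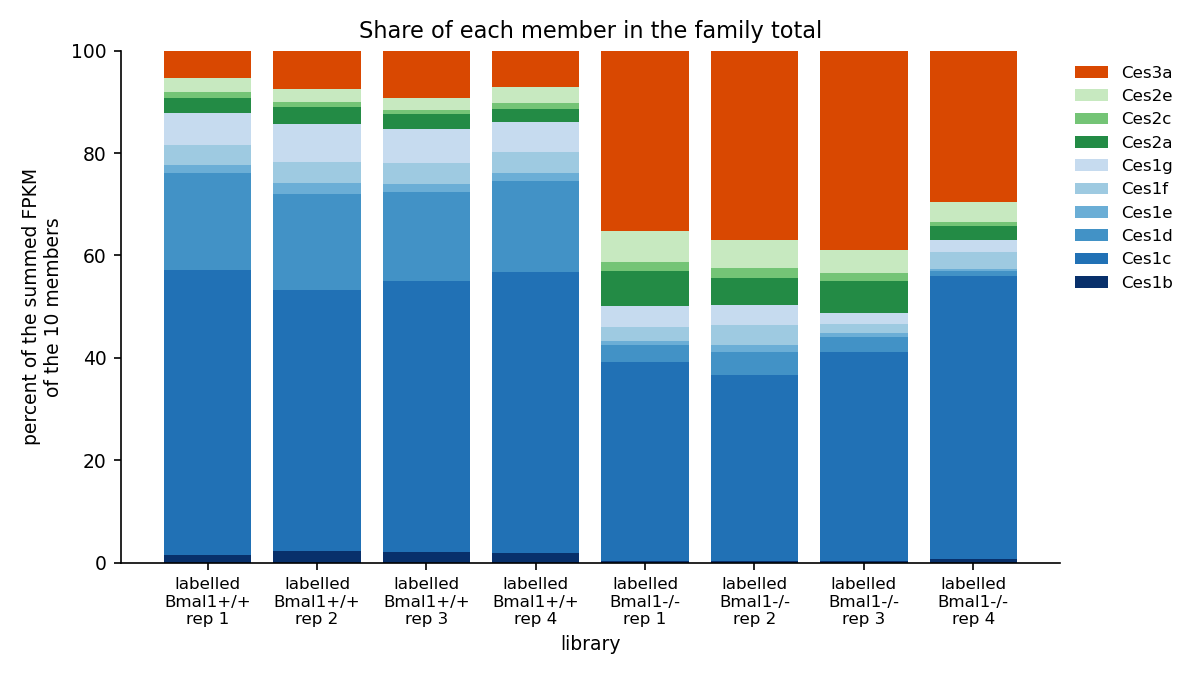
Percent of the summed FPKM of the 10 members held by each (stacked, blue for Ces1, green for Ces2, orange for Ces3a) in each of the 8 libraries. Ces3a takes 5.26 to 9.21% in libraries labelled Bmal1+/+ and 29.6 to 39.0% in those labelled Bmal1-/-.

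The other 10 genes of the family in the annotation were mostly silent. Ces1h, Ces2f and Ces5a had 0 counts in every library, which allows up to 3 counts in each, Ces1a had at most 9 counts and Ces2h at most 19. Of the 10, 4 passed the filter (Ces2d-ps, Ces2g, Ces3b, Ces4a). Among these 4, 1 was higher (Ces3b) and 0 were lower, against 14.9% and 16.2% of all tested genes. At an unadjusted p below 0.05, 2 of the 4 were higher (Ces3b and Ces4a) and 1 was lower (Ces2g). DESeq2 was run without this filter and so also tested Ces2b. With it 3 family genes were higher (Ces2b, Ces3b and Ces4a) and 0 lower. Without Bmal1-/- replicate 4, 5 were tested, of which 2 were higher and 0 lower. Leaving out replicate 2, 3 or 4 labelled Bmal1+/+ gave 2 higher, and leaving out its replicate 1 gave 3. Ces3b, the neighbor of Ces3a, had 3218, 3153, 3053 and 3328 counts in libraries labelled Bmal1+/+ and 7072, 7500, 4891 and 3850 in those labelled Bmal1-/-. All of the latter were higher, and its log2 fold change was 1.00 (SE 0.19, edgeR adjusted p = 0.00405). Ces3a and Ces3b share 95.4% of their transcript sequence, and 25.6% of the 50-base windows of Ces3a occur in another family gene. Their ratio in FPKM was 2.66, 3.51, 4.32 and 3.77 in libraries labelled Bmal1+/+ and 5.55, 5.25, 7.46 and 5.13 in the others.

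Ces2b, which lies beside Ces2c, had 3, 6, 3 and 5 counts in libraries labelled Bmal1+/+ and 108, 79, 48 and 2 in those labelled Bmal1-/-. It did not pass the edgeR filter with all 8 libraries, and replicate 4 was at the floor. Without replicate 4 its log2 fold change was 4.28 (edgeR adjusted p = 4.73e-05). Ces2g had 62.3, 66.9, 56.6 and 62.3 against 54.5, 55.0, 36.2 and 45.3 normalized CPM. These did not overlap, but the log2 fold change of -0.38 did not pass the test (SE 0.14, edgeR adjusted p = 0.0655). Ces4a had at most 15 counts and a log2 fold change of 2.09 (SE 0.72, edgeR adjusted p = 0.0526), and it was called by DESeq2.

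The 3 lists of related genes were described in the same fit, in which 16.2% of all tested genes were lower and 14.9% higher. Without Bmal1-/- replicate 4 the shares were 16.9% and 15.0%. Of 11 tested serine and arylesterases outside the family, 5 were lower (Bche, Ache, Pon3, Nceh1 and Cmbl), 1 was higher (Pon2) and the median log2 fold change was -0.37. Without Bmal1-/- replicate 4, 4 were lower and 1 was higher, and Ache (adjusted p = 0.0793) was the one lost, and 3 were lower with no filter on low counts. The 4 most abundant were the paraoxonase Pon1 (log2 fold change -0.16, adjusted p = 0.527), the arylacetamide deacetylase Aadac (-0.13, 0.584), Cmbl, which activates olmesartan medoxomil (-0.89, 0.00279), and the lysosomal lipase Lipa (-0.18, 0.361). Of these only Cmbl passed the test. Aadac, an esterase of the same compartment as the carboxylesterases, was at 450 to 479 normalized CPM in libraries labelled Bmal1+/+ and at 481, 453, 479 and 293 in the others.

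Of 16 genes of triglyceride lipolysis and VLDL assembly, 5 were lower (Pnpla3, Mgll, Abhd6, Lipg and Tm6sf2), against 16.2% of all tested genes. In this list 1 was higher (Lpl), against 14.9% of all tested genes, and the median was -0.13. Without replicate 4, 5 were lower and 2 higher, with Lipc added (log2 fold change 0.66, adjusted p = 0.00154), and 2 were also higher without Bmal1+/+ replicate 4. Lpl, the lipoprotein lipase that is made mainly outside the adult liver, had 174, 180, 152 and 275 counts in libraries labelled Bmal1+/+ and 7061, 6852, 7102 and 4056 in those labelled Bmal1-/-. The 4 most abundant were Apob (0.47, adjusted p = 0.0607), the main protein of VLDL, Cideb (-0.01, 0.958), which loads it with lipid, the hepatic lipase Lipc (0.48, 0.10) and the lipase inhibitor G0s2 (-1.02, 0.0943). None of these 4 passed the test with all libraries. Lpl, Lipg and Pnpla3 lay beyond the range of the carboxylesterases, at log2 fold changes of 5.16, -4.26 and -7.08.

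Of 12 xenobiotic and lipid nuclear receptors and liver factors, 3 were lower (Nr1i2, Ppara and Nfe2l2), against 16.2% of all tested genes. The median log2 fold change of the list was -0.32. Without Bmal1-/- replicate 4, 4 were lower, with Ahr added, but 1 was lower without Bmal1+/+ replicate 2, without Bmal1-/- replicate 2, with library size only or with no filter on low counts. Nr1i2, the pregnane X receptor, had a log2 fold change of -0.42 (SE 0.13, adjusted p = 0.0327), and Ppara, the fasting-induced lipid sensor, one of -0.91 (SE 0.24, adjusted p = 0.0172). Hnf4a (-0.21, adjusted p = 0.312), Rxra (-0.04, 0.831) and the bile acid receptor Nr1h4 (0.02, 0.928) did not pass the test. Markers of other cell types were present at low levels. Macrophage markers summed to 323 to 383 CPM in libraries labelled Bmal1+/+ and 141 to 242 in the others, endothelial markers to 137 to 170 and 79.6 to 115, and fibroblast markers to 99.8 to 105 in the latter group. T cell markers were at most 4.06 CPM in any library, those of pericytes and smooth muscle at most 56.3, and those of adipocytes at most 12.5. Of the markers of colon epithelium and tumor cells, Krt8 and Krt18, keratins that hepatocytes also express, summed to 183 to 226 CPM against 207 to 354. Epcam was at most 2.18 CPM in any library and Krt20 at most 0.0602, and Cdx2 was at 0 in all of them. Cdh1, which hepatocytes express too, was at 7.13 to 9.61 CPM against 14.6 to 26.5.

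**Figure D4:**
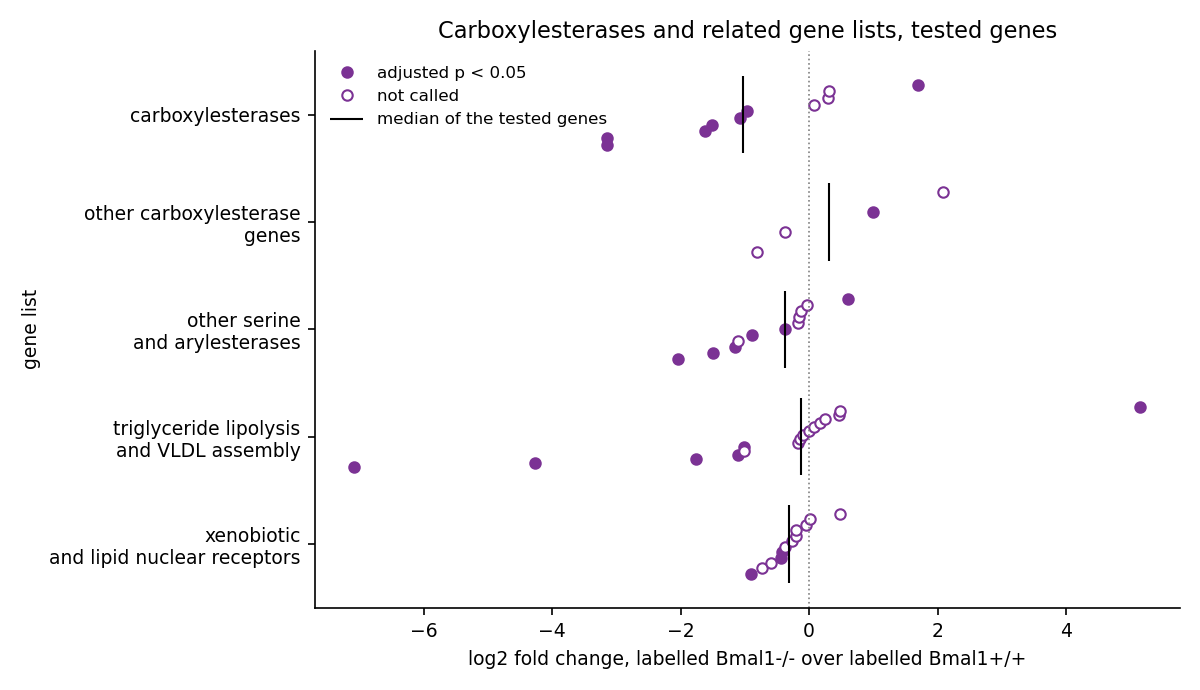
Log2 fold change (labelled Bmal1-/- over labelled Bmal1+/+) of each tested gene of the carboxylesterases and of 4 related lists, ordered by value within a list, filled where the adjusted p was below 0.05, with a bar at the median. The medians are -1.03 for the carboxylesterases, 0.31 for the other family genes, -0.37 for the other esterases, -0.13 for lipolysis and VLDL genes and -0.32 for the nuclear receptors.

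The genes most like a member across the 8 libraries were found by the root-mean-square distance of centred log2 normalized CPM among 13420 genes. For Ces1c they were Mgll (0.063), the monoacylglycerol lipase, Ddo (0.067), the D-aspartate oxidase, and Pi4k2b (0.085), a phosphatidylinositol kinase. Mgll had 298 and 147 mean CPM in the groups, a ratio close to that of Ces1c. For Ces1d the nearest were Upp2 (0.43), a uridine phosphorylase of liver, Gm45819 (0.47) and Rdh16f1 (0.48), a retinol dehydrogenase. The distances for Ces1d were several times those for Ces1c. The 8 libraries share the difference between the groups, which enters every distance.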

How the data were processed

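The 8 samples were sequenced with paired ends. The authors aligned reads to GRCm38 with HISAT2 and counted with StringTie, per the study's methods, while the submitters' processing notes list CASAVA 1.8 and TopHat2 2.0.6. The authors deposited raw counts and FPKM. In 100% of 14353 genes the FPKM equalled count over total and 1 length within 1%, without a TMM factor. The study gives 200 ng of RNA as input, the labels 1.3 µg, and the series text speaks of arrays. Groups and replicate numbers came from the labels, in which Bmal1-/- replicate 4 carries the title KO6. Of 55487 identifiers, 99.4% matched GENCODE M21 symbols.

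Counts were compared by the quasi-likelihood test of edgeR 4.0.16 under R 4.3.3, after filterByExpr and TMM scaling, with a prior count of 0.125 and calls at a Benjamini-Hochberg p below 0.05 over all genes. The code was tested on simulated data. Between libraries of a group the chi-square per degree of freedom was at least 18.0, so none repeated another. Alternatives were DESeq2 1.42.0, limma 3.58.1 (voom, and trend on log2 of FPKM plus 0.1), upper-quartile factors, library size only, no filter, 10 counts in every library, prior count 2, the replicate block and leaving out each library. Biopython 1.88 aligned sequences, and matplotlib 3.10.9 (Python 3.11.15) made the plots.

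The members and lists were chosen with earlier results of these data known. Named genes were all family genes, the 4 most abundant of each other list, Bmal1, and the 3 genes nearest to Ces1c (highest mean FPKM) and Ces1d (lowest fold change). Other list genes are named because they were called, after their values were seen. For 1 list gene no result is reported here.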

Additional observations from a re-analysis of the deposited data

Results flagged for a closer look

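In 50 groups of 4 libraries (members, 3 other family genes and 12 list genes), 3 single libraries lay farther from the rest than the 95% limit of Dixon's test, where chance gives about 1 in 20 groups. Aadac in Bmal1-/- replicate 4 was at 292.5 normalized CPM, and the other 3 were at 452.6 to 481.1. Hnf4a in Bmal1+/+ replicate 4 was at 681.3 CPM against 877.0 to 899.7. Nr1i2 in Bmal1+/+ replicate 2 was at 148.2 CPM against 125.4 to 128.4. None of the members was picked out by this limit.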

How the results depend on the processing

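Each of the 6 Ces1 members and Ces3a kept its direction and its call in 17 of 17 alternatives. Log2 fold changes ranged from -3.51 to -2.80 for Ces1d and from 1.57 to 1.89 for Ces3a, and adjusted p-values were at most 0.0239 for these 7 genes. The number of members lower was 6 in each fit and 5 by the study's criterion. The number higher was 1, with a range of 1 to 3 when 1 library was left out, and 3 without Bmal1-/- replicate 4, when Ces2a (0.59) and Ces2e (0.49) were called. The value of Ces2c changed sign with limma on FPKM (-0.0874), with limma-voom (-0.12) and with the replicate block (-0.0742), and ranged from -0.13 to 0.38 when 1 library was left out. The cause was not tested. The replicate numbers did not pair the samples. The deviations of same-numbered libraries correlated with r between -0.064 and 0.063, and 2 of 8 libraries correlated best with their own number. With the replicate block 6 members were lower and 1 higher, and Ces2g was called (-0.39, adjusted p = 0.0473). The numbers of genes called in the other lists moved by 1 or 2 under single alternatives, the nuclear receptors from 3 lower to 1 and the other family genes from 1 higher to 3 (DESeq2). Depth limits the 6 family genes that did not pass the filter, each with at most 108 counts.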
